A study of Mus musculus with 12 samples.

Results

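The genes described here encode the GATA and TAL1 complex factors of erythroid cells. They are 10 genes chosen by name: Gata1, Gata2, Zfpm1, Tal1, Lmo2, Ldb1, Lyl1, Cbfa2t3, Tcf3 and Runx1. All 10 were found by symbol in an expression table of 29838 genes, and all 10 were among the 12994 genes that passed the filter on low values (1 FPKM or more in 3 or more libraries). The lowest value of any member in any library was 8.90 FPKM, so the filter selected none of them through a single stage. FPKM counts fragments relative to the length of the transcript and the size of the library, so levels can be compared between genes.

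RNA was sequenced from erythroblasts of wild-type (WT) bone marrow, taken from male C57BL/6 mice aged 8 weeks. Cells were depleted of CD45+ cells on magnetic beads and stained for CD45, CD11b and GR1 in a shared channel. Live cells negative in that channel were gated. They were sorted into proerythroblasts (Pro, high CD44 and low Ter119) and, from Ter119+ cells by CD44 and forward scatter, into basophilic (Baso), polychromatic (Poly) and orthochromatic (Ortho) erythroblasts. Each of the 4 stages had 3 libraries. Ortho replicates 2 and 3 carry only a general erythroblast cell type in their labels and were placed in Ortho by their titles. All 4 groups are untreated cells of the same genotype, and the Pro libraries serve as the reference. Whether replicates came from separate mice, or from pools of them, is not given in the sources used here, so the p-values below measure the spread between these libraries, which may be technical.

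GATA1 is the zinc-finger factor that drives erythroid gene expression, and GATA2 is the related factor of stem and progenitor cells, mast cells and basophils. Both bind the same DNA element, and in erythroid maturation GATA1 is known to take over sites from GATA2 and to repress the Gata2 gene, an exchange called the GATA switch. FOG1, the product of Zfpm1, binds the GATA zinc finger as a cofactor. TAL1 and its paralog LYL1 are basic helix-loop-helix (bHLH) proteins that pair with E proteins such as the product of Tcf3 (E2A). The bridging protein LMO2 joins this pair to LDB1, whose self-association connects distant enhancers with promoters, and the whole can sit beside GATA1 on DNA. The corepressor ETO2, encoded by Cbfa2t3, and RUNX1, the factor needed for blood stem cells to emerge, are further partners.

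The sorted fractions carried a hemoglobin signal that was larger in Ortho than in Pro. Hemoglobin genes took 6.98% to 10.7% of the summed FPKM (Pro), 33.2% to 36.7% (Baso), 34.8% to 37.6% (Poly) and 47.2% to 52.6% (Ortho). The 7 erythroid markers examined were expressed (Klf1, Epor, Tfrc, Alas2, Slc4a1, Hbb-bs and Hba-a1). They did not move together: in Ortho against Pro, 4 were higher and 2, Klf1 and Epor, lower at a limma adjusted p under 0.05 (22.7% and 53.2% of all genes). FPKM are relative to the reads of a library, so a larger share of some genes can lower the values of others. Against Pro, the typical gene was shifted by a median log2 fold change of -0.23 (Baso), -0.20 (Poly) and -0.42 (Ortho). Changes were therefore also read on 3 other scales. On the globin-free scale, the library sums without the 12 hemoglobin genes were made equal, and these genes were left out of the sums only. The others were a median-centred scale and an equal-sum scale over all genes. On the globin-free scale the median in Ortho was -0.03. Of all genes called in Ortho against Pro, 29.9% were higher, compared with 49.7% on the globin-free, 49.3% on the median-centred and 18.9% on the equal-sum scale. The depth of the libraries is unknown, and no pair of libraries was identical. In bulk samples such as these, fewer cells of a type and less RNA per cell cannot be told apart.

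All 10 factors were transcribed at every stage, at levels that spanned more than an order of magnitude. In Pro, Lmo2 had the highest mean (227 FPKM), followed by Ldb1 (175), Zfpm1 (151), Tal1 (143), Tcf3 (141) and Gata1 (131). Each of these neighbours overlapped the next between libraries, so the order of neighbours in Pro is not resolved. Lmo2 (179 FPKM or more) and Ldb1 (162 or more) did lie above every library of Tal1, Tcf3 and Gata1 (at most 152, 152 and 142). Lyl1 (64.3) stood below them and above Gata2 (12.98), Runx1 (12.4) and Cbfa2t3 (12.1), and these last overlapped. In Ortho the order was different. Lmo2 (205 FPKM) was separated from all other members, Lyl1 (76.8) came next, and Tal1 (66.9), Tcf3 (60.6), Zfpm1 (44.5) and Ldb1 (40.6) followed with overlapping neighbours. Gata1 (30.9) now overlapped Gata2 (27.4), which overlapped Runx1 (21.4), and Cbfa2t3 (13.5) was again the lowest. Gata1 stood above 96.04% of all tested genes in Pro and above 85.8% in Ortho, and Gata2 above 56.7% and 83.7%.

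**Figure D1:**
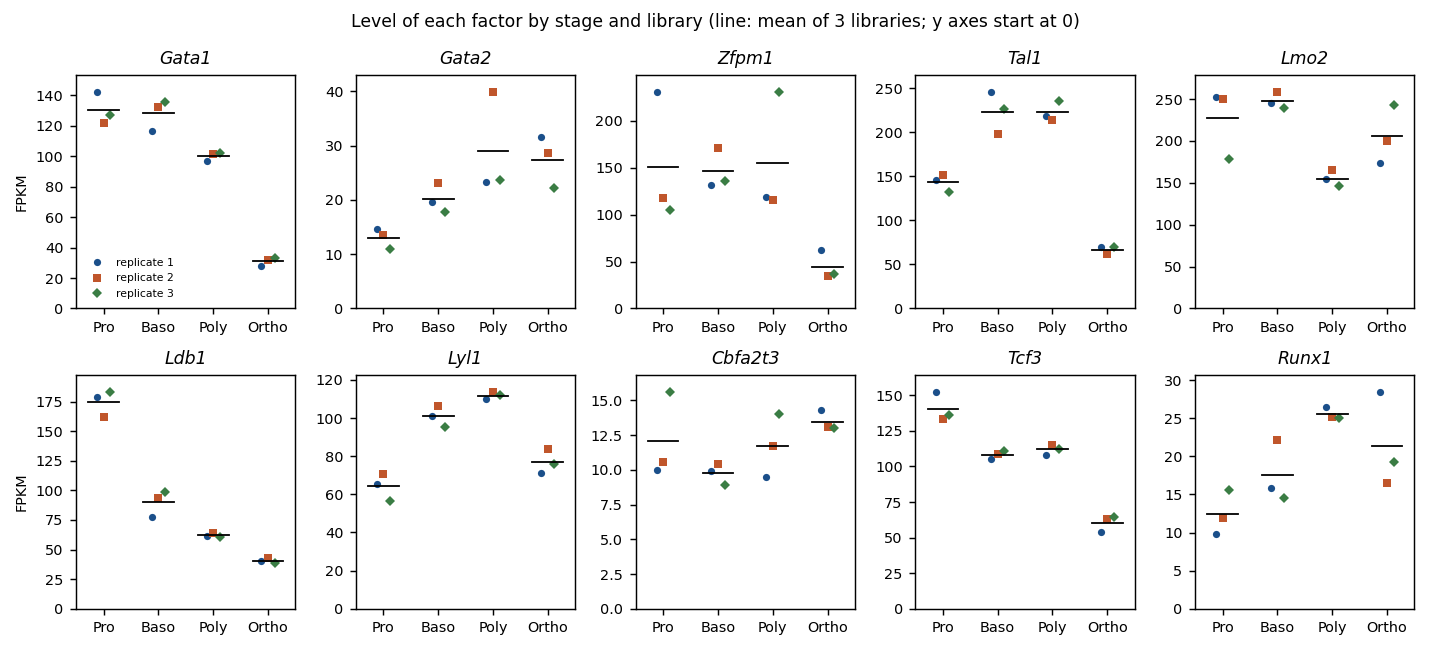
FPKM (y axes, linear, starting at 0) of each of the 10 factors by stage (x axes), with 1 symbol per library and a line at the mean of 3 libraries. Gata1, Tal1 and Tcf3 were lowest in Ortho, Ldb1 was lower at each later stage, and the Gata2 libraries of Baso, Poly and Ortho all lay above the 3 Pro libraries.

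Gata1 (ENSMUSG00000031162, minus strand of chrX:7959260-7978071 in mm10, 6 exons) was near its Pro level in Baso, was slightly lower in Poly and fell steeply in Ortho. Its FPKM was 142, 122 and 127 in the Pro libraries (replicates 1, 2 and 3), 117, 132 and 135 in Baso, 97.1, 101 and 102 in Poly and 27.9, 31.9 and 33.1 in Ortho. The Pro and Baso libraries overlapped, all Poly libraries lay below them, and the Ortho libraries lay far below the rest. From Poly to Ortho the log2 fold change was -1.67 (standard error, SE, 0.09, limma adjusted p = 9.28e-08), and from Pro to Ortho it was -2.04 (limma adjusted p = 6.98e-09). The step from Baso to Poly was small (-0.35, limma adjusted p = 0.0282). That call was not past the threshold without the filter (limma adjusted p = 0.0563), nor when any of Baso replicates 2 and 3 or Poly replicates 1, 2 and 3 was left out (-0.36 to -0.31). The Baso value against Pro, -0.03, turned to 0.29 on the globin-free and 0.27 on the median-centred scale, and passed the threshold on both. Gata1 was also lower in Poly than in Pro (-0.38, limma adjusted p = 0.00264), but on the globin-free (-0.03) or the median-centred scale (-0.13) that difference was no longer past it.

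Gata2 (ENSMUSG00000015053, plus strand of chr6:88193891-88207032, 6 exons) was higher in Ortho than in Pro, with its rise before the step in which Gata1 fell. Its FPKM was 14.6, 13.5 and 10.9 (Pro), 19.6, 23.2 and 17.8 (Baso), 23.3, 39.9 and 23.6 (Poly) and 31.6, 28.6 and 22.1 (Ortho). Every Baso library lay above every Pro library, and every Poly library above every Baso library, the closest pair being 23.3 and 23.2. The Ortho libraries overlapped those of Poly. Against Pro the log2 fold change was 0.60 for Baso (SE 0.20), 1.06 for Poly and 1.02 for Ortho. The limma adjusted p-values were 0.0250, 0.000726 and 0.000727. The Poly and Ortho differences stayed positive and past the threshold under each of the 3 rescalings of the libraries. The Baso difference did not pass the threshold without the filter (limma adjusted p = 0.0832), on the equal-sum scale (0.43, limma adjusted p = 0.0803), or without Pro replicate 3 (0.49), Baso replicate 1 (0.62) or Baso replicate 2 (0.50). Neither Poly against Baso (0.46, limma adjusted p = 0.157) nor Ortho against Poly (-0.04, limma adjusted p = 0.921) passed it, and the latter turned to 0.095 on the globin-free scale and to 0.20 without Poly replicate 2, the library with 39.9 FPKM.

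Gata1 was lower and Gata2 higher in Ortho than in Pro, while their products read the same element. The sequence before their start sites is therefore shown here with those of Tal1 and Cbfa2t3, in whose windows GATA letters were found. The sequences are from RefSeq on GRCm38.p6 (mm10), 5′ to 3′ on the strand of the gene, and end at the base before the start. Capitals mark the motifs searched on both strands: the GATA element, spelled AGATAA or TGATAA, or with a final G as AGATAG or TGATAG, the E-box CANNTG, which bHLH proteins read, and TGTGGT, the element of RUNX proteins.
Gata1, chrX:7967911-7968160, minus strand: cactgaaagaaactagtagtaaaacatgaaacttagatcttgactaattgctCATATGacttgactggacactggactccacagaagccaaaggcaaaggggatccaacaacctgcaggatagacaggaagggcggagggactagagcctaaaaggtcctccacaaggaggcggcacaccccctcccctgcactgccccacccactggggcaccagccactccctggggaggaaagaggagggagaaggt
Gata2, chr6:88193641-88193890, plus strand: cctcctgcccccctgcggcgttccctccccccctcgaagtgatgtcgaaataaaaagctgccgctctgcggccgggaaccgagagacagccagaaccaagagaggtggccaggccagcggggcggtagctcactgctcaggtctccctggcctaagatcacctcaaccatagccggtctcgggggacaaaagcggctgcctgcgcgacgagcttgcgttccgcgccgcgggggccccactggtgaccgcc
Tal1, chr4:115056176-115056425, plus strand: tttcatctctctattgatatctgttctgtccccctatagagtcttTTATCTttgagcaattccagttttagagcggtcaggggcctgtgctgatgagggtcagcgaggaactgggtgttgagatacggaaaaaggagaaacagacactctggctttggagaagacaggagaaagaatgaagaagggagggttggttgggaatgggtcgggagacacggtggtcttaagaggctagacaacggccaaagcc
Cbfa2t3, chr8:122699110-122699359, minus strand: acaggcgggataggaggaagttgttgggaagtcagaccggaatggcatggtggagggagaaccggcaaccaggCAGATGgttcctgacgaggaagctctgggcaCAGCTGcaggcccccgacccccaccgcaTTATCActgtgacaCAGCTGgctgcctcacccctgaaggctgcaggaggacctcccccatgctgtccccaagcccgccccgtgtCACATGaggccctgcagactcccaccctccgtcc
The Gata1 window, which lies within the annotated span of the gene, held an E-box 198 bases before the start and no GATA spelling. The Gata2 window held none of these letters. In Tal1, AGATAA lay on the opposite strand (printed as TTATCT) 205 bases before the start, and in Cbfa2t3, TGATAA lay on the opposite strand (printed as TTATCA) at 118 bases, among 4 E-boxes.

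RefSeq gave 15 windows, from 250 bases before to 50 bases after a start, for 9 of the 10 factors. A GATA spelling was found in 3 of them, those of Tal1 and Cbfa2t3 above and an internal Ldb1 start with AGATAA at 240 and 200 bases. Among all 32817 windows of the table, 29.8% held at least 1 of the 4 spellings. An E-box was in 9 of the 15 (72.3% of all windows), TGTGGT in 1, at a Runx1 start (16.8%), and CTG followed after 8 bases by AGATAA, the composite element of TAL1 and GATA1, in none (0.363%). None of these shares was larger than that of promoters at large. A match is a description of letters, and the absence of one says only that they are not in this window.

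Zfpm1 (ENSMUSG00000049577, plus strand of chr8:122282141-122337251, 10 exons) shared the drop of Gata1 in Ortho. Its FPKM was 231, 117 and 104 (Pro), 131, 171 and 136 (Baso), 118, 115 and 230 (Poly) and 61.9, 35.1 and 36.4 (Ortho). All Ortho libraries lay below all others, and the first 3 stages overlapped. The log2 fold change was -1.75 from Poly to Ortho (SE 0.34, limma adjusted p = 0.00197) and -1.70 from Pro to Ortho (limma adjusted p = 0.000701). Its replicates were further apart than those of most genes: the coefficient of variation was above that of 93.2% of the genes tested in Pro and of 93.8% in Poly. Pro replicate 1 and Poly replicate 3 were the high libraries, and the differences among Pro, Baso and Poly (0.01 to 0.05) were far within this spread. Zfpm1 lies wholly inside Gm20388 on the same strand (mean 0.043 FPKM over the 12 libraries). How fragments shared by 2 genes were counted is not given in the sources used here.

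Tal1 (ENSMUSG00000028717, plus strand of chr4:115056426-115071755, 5 exons) rose from Pro to Baso, was at a like level in Poly and fell in Ortho. Its FPKM was 146, 152 and 132 (Pro), 246, 199 and 226 (Baso), 219, 214 and 235 (Poly) and 70.0, 61.4 and 69.4 (Ortho). Only Baso and Poly overlapped. The log2 fold change was 0.64 from Pro to Baso (SE 0.09, limma adjusted p = 0.000138), -1.72 from Poly to Ortho (limma adjusted p = 1.05e-07) and -1.09 from Pro to Ortho (limma adjusted p = 7.94e-07). Tal1 in Poly was 0.63 above Pro on the log2 scale (limma adjusted p = 9.83e-05), and between Baso and Poly its mean differed by less than the spread between replicates.

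Lyl1 (ENSMUSG00000034041, plus strand of chr8:84701457-84704715, 4 exons), the paralog of Tal1, shared its first rise and lost much less in Ortho. Its FPKM was 65.6, 70.6 and 56.6 (Pro), 101, 107 and 95.3 (Baso), 110, 114 and 112 (Poly) and 71.1, 83.7 and 75.7 (Ortho). Baso, Poly and Ortho libraries all lay above those of Pro, the closest being 71.1 in Ortho and 70.6 in Pro. The log2 fold change was 0.65 from Pro to Baso (SE 0.09, limma adjusted p = 9.45e-05), 0.80 from Pro to Poly (limma adjusted p = 1.43e-05) and -0.54 from Poly to Ortho (limma adjusted p = 0.000658). Ortho remained above Pro by 0.26 (limma adjusted p = 0.0208), a difference that did not pass without Pro replicate 3 (0.17) or Ortho replicate 2 (0.19), nor in a fit of only these stages, and that was -0.11 on the equal-sum scale. Lyl1 lies wholly inside Nfix on the opposite strand (mean 18.1 FPKM over the 12 libraries), and whether the counting used strand is not given in the sources used here.

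Tcf3 (ENSMUSG00000020167, minus strand of chr10:80409514-80433647, 19 exons), the E protein partner, was lower in Ortho than anywhere else. Its FPKM was 152, 133 and 136 (Pro), 105, 109 and 111 (Baso), 108, 115 and 113 (Poly) and 53.9, 63.3 and 64.5 (Ortho). The stages fell into 3 levels, with only Baso and Poly overlapping. The log2 fold change was -0.88 from Poly to Ortho (SE 0.08, limma adjusted p = 6.31e-06) and -1.20 from Pro to Ortho (limma adjusted p = 1.27e-07). From Pro to Baso it was -0.37 (limma adjusted p = 0.00214), and from Pro to Poly -0.32 (limma adjusted p = 0.00412). Those earlier differences depended on the scaling: on the globin-free scale they were -0.059 and 0.024, and on the median-centred scale -0.077 and -0.075, none past the threshold.

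Lmo2 and Ldb1, which bridge the bHLH pair to GATA1 and to distant sites, parted from each other. Ldb1 (ENSMUSG00000025223, minus strand of chr19:46031570-46045214, 11 exons) was lower at every step. Its FPKM was 179, 162 and 183 (Pro), 77.1, 93.7 and 98.9 (Baso), 61.7, 63.9 and 61.0 (Poly) and 40.2, 42.7 and 38.8 (Ortho). No stages overlapped. The log2 fold change was -0.95 from Pro to Baso (SE 0.09, limma adjusted p = 8.28e-06), -0.52 from Baso to Poly (limma adjusted p = 0.00700) and -0.61 from Poly to Ortho (limma adjusted p = 0.000336). From Pro to Ortho it was -2.08 (limma adjusted p = 8.02e-09), beside Gata1 the lowest of the 10 factors. The gene overlaps Pprc1 on the opposite strand by 329 bases (mean 11.2 FPKM).

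Lmo2 (ENSMUSG00000032698, plus strand of chr2:103957986-103981878, 4 exons) had 253, 250 and 179 FPKM (Pro), 245, 259 and 240 (Baso), 154, 165 and 146 (Poly) and 173, 200 and 242 (Ortho). The Poly libraries were the lowest and overlapped no other stage. For Baso against Pro the log2 fold change was 0.14 (limma adjusted p = 0.415), but it was past the threshold on the globin-free (0.46) and the median-centred scale (0.44). From Baso to Poly the log2 fold change was -0.67 (SE 0.14, limma adjusted p = 0.0146), a call that was not past the threshold without Baso replicate 2 (-0.64), Poly replicate 1 (-0.67) or Poly replicate 3 (-0.63). From Pro to Poly it was -0.53 (limma adjusted p = 0.00630), which fell short of the threshold on the globin-free (-0.18) or the median-centred scale (-0.28). Ortho against Poly was 0.39 (limma adjusted p = 0.0674). When replicate numbers were blocked in a fit of Baso, Poly and Ortho, it had a limma adjusted p of 0.0307, and it was also past the threshold on the globin-free (0.53) and the median-centred scale (0.54) and without Pro replicate 3 (0.39) or Ortho replicate 1 (0.51). Ortho against Pro (-0.14, limma adjusted p = 0.381) turned to 0.35 on the globin-free scale, and was past the threshold on the equal-sum scale (-0.51) and without Pro replicate 3 (-0.31). Lmo2 overlaps 4931422A03Rik on the opposite strand by 14936 bases (mean 4.72 FPKM).

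Cbfa2t3 (ENSMUSG00000006362, minus strand of chr8:122625141-122699109, 12 exons) had no change past the threshold in any of the 5 comparisons on the deposited scale. Its FPKM was 9.98, 10.6 and 15.6 (Pro), 9.94, 10.4 and 8.90 (Baso), 9.51, 11.7 and 14.0 (Poly) and 14.3, 13.1 and 13.0 (Ortho). Neighbouring stages overlapped, and Pro replicate 3 was the highest library of all. The log2 fold changes lay between -0.26 (Baso against Pro, limma adjusted p = 0.192) and 0.23 (Poly against Baso, limma adjusted p = 0.369). On the equal-sum scale Baso against Pro was -0.42 and past the threshold (limma adjusted p = 0.0335). Ortho against Pro was 0.17 (SE 0.16, limma adjusted p = 0.345), but 0.36 and past the threshold without Pro replicate 3, 0.63 and 0.57 and past it on the globin-free and the median-centred scale, and -0.17 on the equal-sum scale. Cbfa2t3 lies wholly inside Gm20388, which is on the opposite strand (mean 0.043 FPKM).

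Runx1 (ENSMUSG00000022952, minus strand of chr16:92601466-92826149, 8 exons) resembled Gata2. Its FPKM was 9.81, 11.9 and 15.5 (Pro), 15.9, 22.2 and 14.5 (Baso), 26.5, 25.1 and 25.0 (Poly) and 28.4, 16.5 and 19.3 (Ortho). Poly and Ortho lay above Pro in all libraries, while Baso overlapped Pro and Ortho overlapped both Baso and Poly. Against Pro the log2 fold change was 0.46 for Baso (SE 0.21), 1.01 for Poly and 0.73 for Ortho, and limma gave adjusted p-values of 0.0760, 0.00124 and 0.00755. On the equal-sum scale the Ortho value was 0.38 and not past the threshold (limma adjusted p = 0.111). The Baso value passed it on the globin-free (0.76) and the median-centred scale (0.76) and without Pro replicate 3 (0.63) or Ortho replicate 1 (0.46).

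Counted over the 10 factors, the last step was where most of them were lower. In Ortho against Poly, 6 were lower at a limma adjusted p under 0.05 (Gata1, Zfpm1, Tal1, Ldb1, Lyl1 and Tcf3), against 21.7% of all genes tested, and Gata1, Zfpm1 and Tal1 were lower by at least 2-fold (4.81% of all genes). None was higher by limma (4.43% of all genes), with 1 at an unadjusted p under 0.05, and 1, Lmo2, was higher on the globin-free scale (9.57% of all genes). In Poly against Baso, 3 were lower (5.77% of all genes) and none higher (6.58%), with 2 higher at an unadjusted p under 0.05. The 3 lower were Gata1, Lmo2 and Ldb1. In Baso against Pro, 3 were higher (Gata2, Tal1 and Lyl1, against 14.9% of all genes) and 2 lower (Ldb1 and Tcf3, against 42.1%). On the globin-free or the median-centred scale, 6 were higher (against 27.1% or 30.5% of all genes) and 1 was lower (24.3% or 23.5%).

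Over the whole course from Pro to Ortho, 3 factors were higher (Gata2, Lyl1 and Runx1, against 22.7% of all genes) and 5 lower (Gata1, Zfpm1, Tal1, Ldb1 and Tcf3, against 53.2%), which is close to the shares of all genes. All 5 that were lower were lower by at least 2-fold, compared with 23.8% of all genes, and Gata2 was higher by at least 2-fold (6.33%). Tal1 and Tcf3 stayed past the threshold but short of 2-fold on the globin-free (-0.60 and -0.72) and the median-centred scale (-0.69 and -0.81). Gata2 was also short of 2-fold on the equal-sum scale (0.67), and at 0.91 in the lowest fit without 1 library. In Poly against Pro, 4 were higher (Gata2, Tal1, Lyl1 and Runx1, against 23.3%) and 4 lower (Gata1, Lmo2, Ldb1 and Tcf3, against 42.7%), and on the globin-free or the median-centred scale Ldb1 alone was lower (27.4% or 30.1% of all genes).

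**Figure D2:**
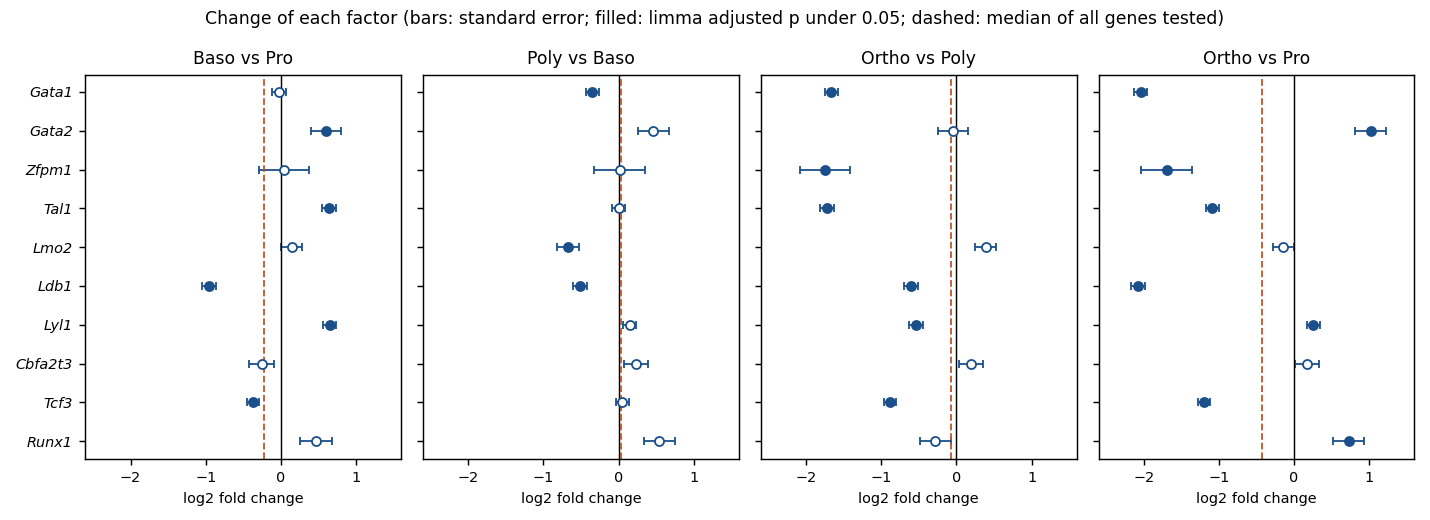
Log2 fold change (x axes) of each factor (y axis) in 4 comparisons, with bars for the standard error, filled points for a limma adjusted p under 0.05 and a dashed line at the median of all genes tested. In Ortho against Poly 6 filled points lie below 0, with Gata1, Zfpm1 and Tal1 between -1.75 and -1.67, whereas in Baso against Pro 3 lie above it.

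Ratios of 2 factors within a library do not depend on how that library was scaled, so the balance between partners was compared in 7 pairs. Mean ratios are arithmetic means over 3 libraries, and mean log2 ratios are means of the log2 values. With 3 libraries against 3, an exact permutation test cannot give a p below 0.1, so the ratios are described by whether the stages overlapped.

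Gata2 stood at 0.0856 to 0.110 times the level of Gata1 (Pro), 0.132 to 0.175 times (Baso), 0.232 to 0.394 times (Poly) and 0.668 to 1.14 times (Ortho). No stages overlapped, and the mean log2 ratio moved from -3.34 to -0.19, most of it between Poly and Ortho (1.65). In that step the log2 fold change was -1.67 for Gata1 and -0.04 for Gata2. Runx1 relative to Gata1 moved in the same direction, from a mean log2 ratio of -3.42 to -0.57, with only Pro and Baso overlapping. Zfpm1 relative to Gata1 overlapped between all stages, with means of 1.13 (Pro), 1.14 (Baso), 1.54 (Poly) and 1.47 (Ortho), so no shift in the balance of FOG1 and GATA1 transcripts was detectable within this wide spread.

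Among the bHLH proteins, Lyl1 stood at 0.448 times Tal1 in Pro, 0.457 in Baso and 0.503 in Poly, with overlap between neighbouring stages, and at 1.16 times in Ortho, where each library was above all others. In Ortho Lyl1 was thus at or above the level of Tal1 in each library (1.02 to 1.36 times). Tcf3 was level with Tal1 in Pro (0.985 times) and in Ortho (0.910), but lay at 0.488 times in Baso and 0.504 in Poly. Cbfa2t3 relative to Tal1 was lower in Baso (0.0441) than in Pro (0.0854) in all libraries and highest in Ortho (0.202). Lmo2 was 1.31 times Ldb1 (Pro), 2.79 times (Baso), 2.49 times (Poly) and 5.08 times (Ortho), with only Baso and Poly overlapping.

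**Figure D3:**
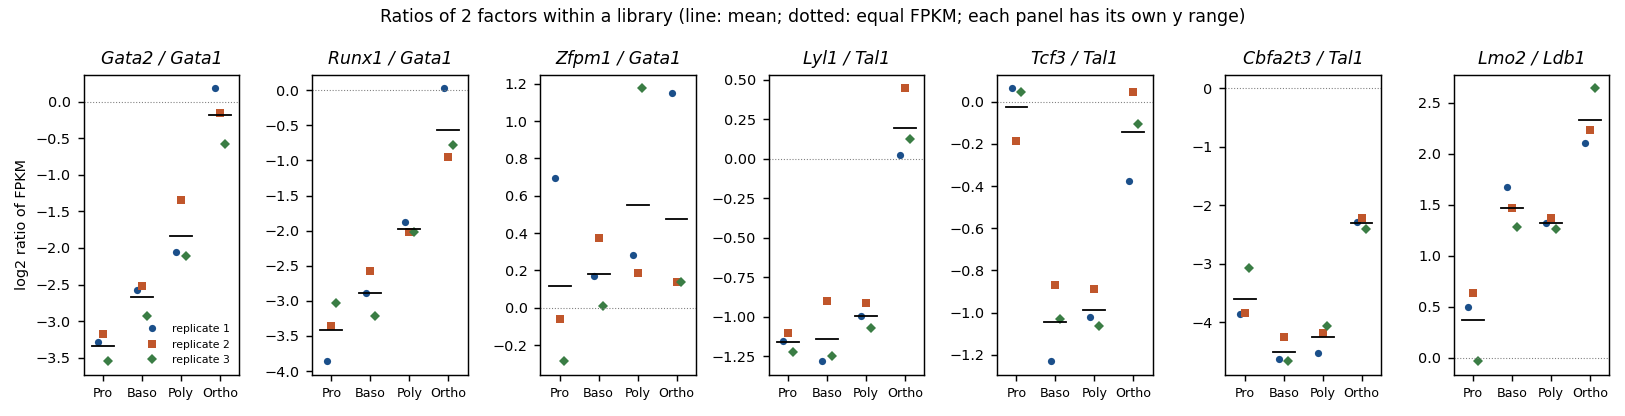
Log2 ratio of FPKM within a library (y axes, each panel with its own range) for 7 pairs of factors by stage, with 1 symbol per library and a line at the mean. Gata2 over Gata1 climbs from a mean of -3.34 in Pro to -0.19 in Ortho, and Lyl1 over Tal1 is near -1 in the first 3 stages and 0.20 in Ortho.

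Transcripts of other bone marrow cells were present in the sorted fractions, and most of them moved with Gata2 and Runx1. The summed FPKM of the mast cell and basophil markers ranged from 250 to 393 (Pro), 484 to 614 (Baso), 659 to 794 (Poly) and 654 to 771 (Ortho), with the basophil proteases Prss34 and Mcpt8 and the histamine enzyme Hdc leading. Of the 9 listed, 7 were tested and all 7 were higher in Ortho than in Pro (22.7% of all genes). The mast cell chymase Cma1 was at most 0.202 FPKM in any library, and Mcpt4 was not matched. Neutrophil markers (S100a9, S100a8 and Ngp leading) ranged from 6835 to 8541 in Pro and from 13412 to 16669 in Ortho, after a sort gated on cells negative for CD11b and GR1.

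The other lists gave similar numbers. Their summed FPKM in Ortho was 2.36 times that in Pro for B cells (Cd79b, Cd79a and Igll1 leading), 2.34 for macrophages (Lyz2, Csf1r and Adgre1), 2.09 for stem and early progenitor cells (Cd48, Cd34 and Flt3) and 1.56 for T and NK cells (Nkg7, Gzma and Klrb1c), beside 2.15 for mast cells and basophils and 2.00 for neutrophils. The defining macrophage genes C1qa, C1qb, C1qc and Cd5l reached at most 1.09, 0.575, 0.861 and 0.419 FPKM in any library. Mecom and Procr of the stem cell list, and Cd3e, Cd3g, Cd3d and Trac of the T cell list, stayed under 1 FPKM. The sum of the megakaryocyte and platelet markers (Itga2b, Pf4 and Gp9 leading) went the other way, to 0.464 times the Pro sum. Of the 10 tested, 7 were lower and 1 higher (against 53.2% and 22.7% of all genes). Pf4 and Gp9 were lower in every Ortho library than in any Pro library. Itga2b was not, at 16.6 to 21.7 FPKM in Pro and 24.0 to 26.2 in Ortho.

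Gata2 in Ortho was 2.03 times its Pro level on the scale of the fit. Within a library, its ratio to the summed mast cell and basophil markers had a mean of 0.0400 (Pro), 0.0369 (Baso), 0.0386 (Poly) and 0.0386 (Ortho), and all stages overlapped. This ratio was chosen after the values had been seen. Against 6 of the 7 lists of other cells, the Gata2 ratios of Pro and Ortho overlapped, with mean log2 differences of -0.20 (B cells) to 0.42 (T and NK cells), and only against megakaryocyte markers did Ortho lie above Pro. Runx1 gave the same counts, with differences of -0.51 (B cells) to 0.12 (T and NK cells) over those 6 lists. Over the 12 libraries, the Pearson correlation of Gata2 with the mast cell and basophil sum was 0.926, and with the other lists of rising sum 0.761 (neutrophils) to 0.853 (stem and early progenitor cells). With the erythroid sum, which also rose and was led by the globins Hba-a1 and Hbb-bs, it was 0.823. These points share their libraries and scaling. The part that such cells have in the Gata2 and Runx1 levels was not tested. Gata1 went against each of these rising lists (-0.802 to -0.431).

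**Figure D4:**
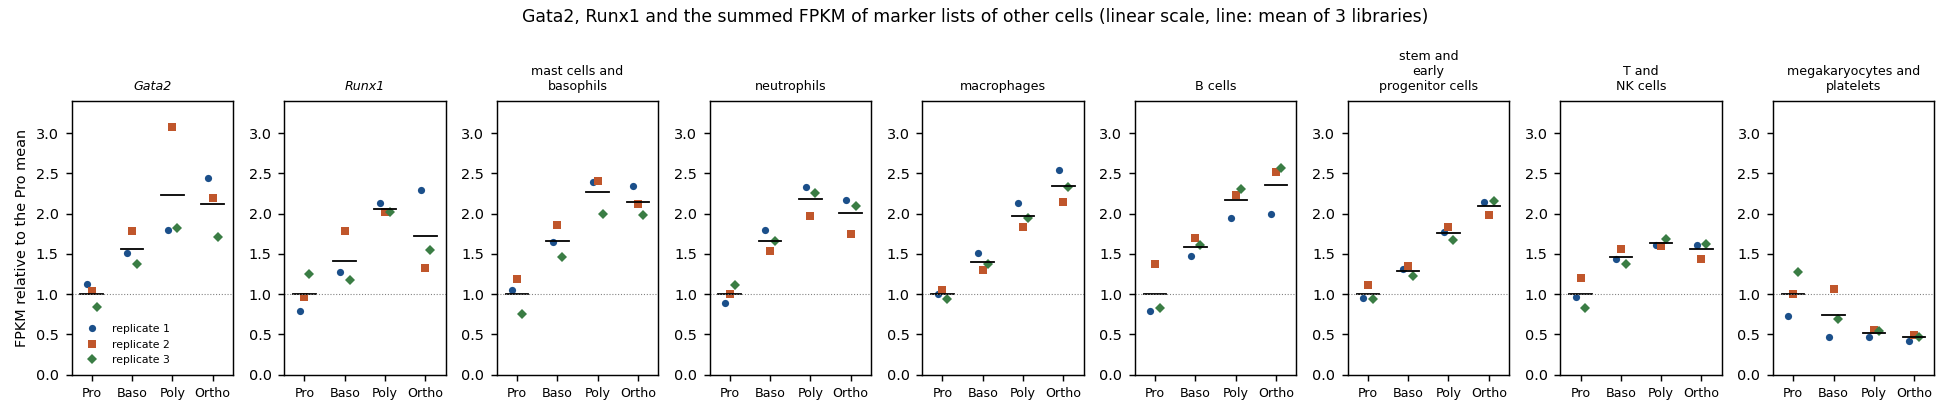
FPKM relative to the Pro mean (y axes, linear from 0) for Gata2, Runx1 and the summed markers of 7 other cell types, by stage, with 1 symbol per library and a line at the mean. Gata2 and 6 of the marker sums rise to between 1.56 and 2.36 times the Pro mean in Ortho, and the megakaryocyte sum is at 0.464 times.

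Genes that belong to the same complexes, or are their known targets, were read from lists chosen by function, in Ortho against Pro. Counts over these lists are on the deposited scale and were not repeated on the other scales, so how far they depend on scaling was not tested. In this comparison the median of all genes was -0.03 on the globin-free, -0.03 on the median-centred and -0.72 on the equal-sum scale. The largest uniform group was the corepressor subunits (the GFI1B, LSD1 and CoREST proteins and the NuRD complex): 14 of 15 were lower and none higher, 10 of them by at least 2-fold (against 53.2% and 23.8% of all genes), with a median log2 fold change of -1.20 beside -0.42 for all genes. Gfi1b, which recruits LSD1 in erythroid cells, had 85.6, 115 and 96.8 FPKM in Pro and 11.5, 13.9 and 11.4 in Ortho (-2.91, limma adjusted p = 1.52e-08). The NuRD subunits Mta2 (-1.41), Hdac2 (-1.40) and Mbd3 (-1.36) followed. Gatad2b (0.15, limma adjusted p = 0.615) was the subunit that did not pass.

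Partners of the bHLH and LIM proteins split. Of 5 bHLH partners and ID inhibitors tested, 4 were higher and none lower (against 22.7% and 53.2% of all genes): Id2 (1.14) and Id3 (1.13), which bind E proteins and keep them from DNA, Id1 (0.54) and the E protein gene Tcf4 (0.37). Id1 and Tcf4 did not pass on the equal-sum scale, nor did Id1 without the filter. Tcf12, also an E protein gene, was at -0.37 (limma adjusted p = 0.194), with means of 19.3 FPKM in Pro and 13.8 in Ortho and overlapping libraries. The SSBP genes, whose products stabilise LDB1, were all lower beside Ldb1: Ssbp3 by -1.22, Ssbp2 by -1.14 and Ssbp4 by -1.12. Lmo1, a paralog of Lmo2 at a low level (3.53 to 4.12 FPKM in Pro and 8.13 to 9.36 in Ortho), was higher by 1.01, so that of the 5 tested genes of this list 3 were lower and 2 higher. Of the RUNX and ETO relatives, 3 of 5 were higher and none lower (against 22.7% and 53.2% of all genes): Runx1t1 (1.18, from under 1 FPKM in Pro), Runx2 (1.16) and Cbfb (1.11), the last encoding the subunit that all RUNX proteins share. Runx3 was at -0.26 (limma adjusted p = 0.144), and at 0.19 on the globin-free scale.

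Coactivators showed no common direction: Crebbp (0.81) and Ep300 (0.57) were higher, the latter not past the threshold on the equal-sum scale, and Med1 (-0.72) was lower. Smarca4 was lower by -0.25, but by 0.23 higher and also called on the globin-free scale. No paralog of the GATA or FOG proteins could be tested. Gata3 and Gata6 were at most 0.203 and 0.108 FPKM, and Gata4, Gata5 and Zfpm2 were not matched by symbol.

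Of the targets that GATA1 and TAL1 are known to activate, 9 were tested and most were higher. In all, 7 were higher in Ortho than in Pro and 2 were lower (against 22.7% and 53.2% of all genes), with a median log2 fold change of 1.55. The survival gene Bcl2l1 was higher by 3.54, the globins Hbb-bs and Hba-a1 by 3.15 and 2.89, and Alas2, the first enzyme of heme synthesis, by 2.74. The transcription factor gene Nfe2 was at 0.91 (limma adjusted p = 0.0444) with overlapping libraries. That call was lost without the filter, on the equal-sum scale (0.55), with only the 2 stages, or without any one of Pro replicates 2 and 3, Baso replicate 3 and the Poly and Ortho replicates (0.53 to 0.96). The 2 lower genes were Klf1 (-2.19), also a transcription factor gene, and Epor (-1.66), the erythropoietin receptor gene, and their levels from Pro to Poly (282 to 351 FPKM for Klf1, 144 to 176 for Epor) and in Ortho (60.7 to 73.6 and 43.4 to 50.05) did not overlap, as with Gata1. Hbb-bs and Hba-a1 each have a near-identical neighbour that may share their fragments, which makes both values uncertain, and neither passed without the filter. Of the 3 targets known to be repressed, Myc was lower (-0.61), Myb was higher (0.37), and Kit was at -0.28 (limma adjusted p = 0.134). None of these held under all scalings: Myc was at -0.14 on the globin-free scale and not past the threshold without the filter, Myb at 0.01 on the equal-sum scale, and Kit at 0.18 on the former and -0.63 on the latter. Single libraries also decided some of these calls. Id1 did not pass without Pro replicate 3 (0.40) or Ortho replicate 2 (0.45), Tcf4 without Ortho replicate 1 (0.31), Smarca4 without Pro replicate 3, Ortho replicate 1 or Ortho replicate 2 (each -0.22), and Myc without Pro replicate 3 (-0.47) or Ortho replicate 1 (-0.39). Runx3 passed without Ortho replicate 1 (-0.38) and Kit without Ortho replicate 3 (-0.42).

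**Figure D5:**
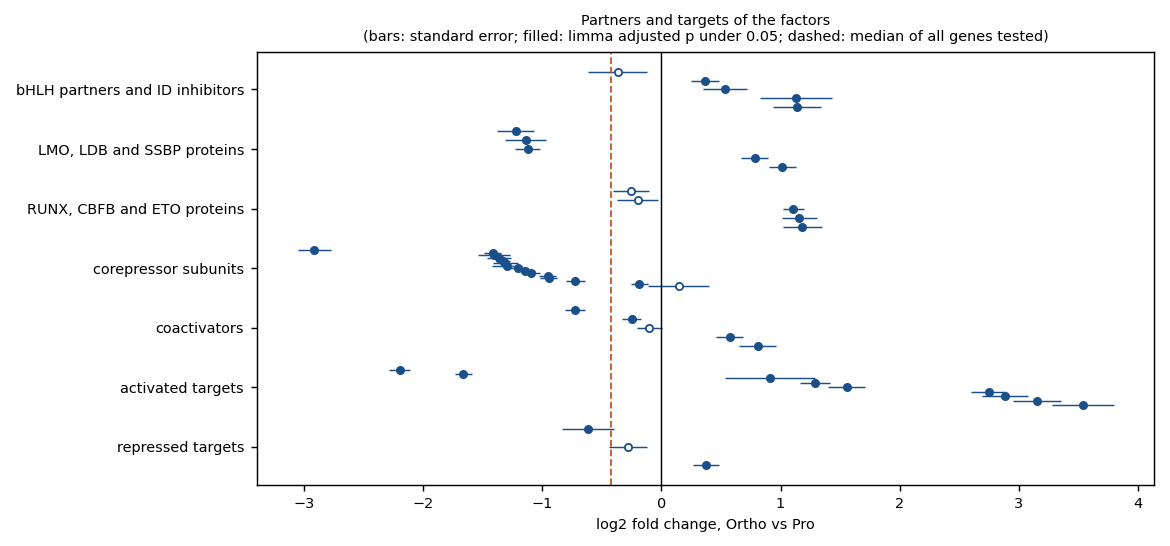
Log2 fold change of Ortho against Pro (x axis) for every tested gene of 7 lists of partners and targets (y axis), with bars for the standard error, filled points for a limma adjusted p under 0.05 and a dashed line at the median of all genes tested. Corepressor subunits lie between -2.91 and 0.15 with 14 of 15 filled below 0, and activated targets spread from -2.19 to 3.54.

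The genes most like each factor across the 12 libraries were taken from 6001 genes with a mean of at least 10 FPKM, by the Pearson correlation of log2(FPKM + 1). For Gata1 they were E2f4 (0.998), Slc38a5 (0.995), D030056L22Rik (0.995), Ormdl3 (0.994) and Gps2 (0.994). E2f4, a cell cycle factor, had means of 246, 234, 193 and 73.7 FPKM in Pro, Baso, Poly and Ortho. For Tal1 they were Anln (0.994), Kif18a (0.993), Ckap5 (0.992), Cenpl (0.992) and Kif14 (0.991), genes of the spindle, the centromere and cell division. Anln stood at 35.2, 59.6, 61.5 and 15.3 FPKM, the same shape of a rise to Baso and a loss in Ortho. For Gata2 they were Aldh3a2 (0.940), Tcirg1 (0.937), Prss34 (0.935), Arhgdib (0.933) and Sox4 (0.932), and Prss34 is in the list of mast cell and basophil markers used above. The points share their stages and scaling, so these values describe a likeness of course and nothing more.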

How the data were processed

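Wild-type mouse bone marrow erythroblasts of 4 sorted stages were sequenced, with 3 libraries a stage, grouped by their titles. Per the labels, RNA was extracted with Trizol and libraries were made with NEBNext Ultra, whereas the study's methods name Geek lysis and KAPA Hyper Prep. The authors trimmed reads with Cutadapt and Trimmomatic, aligned them to mm10 (HISAT2), assigned them to genes (featureCounts) and deposited 1 FPKM value per gene and library. Tool versions, the annotation and the step from counts to FPKM are not given in the sources used here. The table held 29839 lines, 1 of them a repeated identifier.

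FPKM are not counts. Low values (under 0.03 FPKM) showed no steps of whole fragments, since the most common log2 ratio bin of width 0.1 held 3.87% to 8.58% of them over the 66 pairs of libraries, so depth is unknown, and precision is given by the spread between 3 libraries. Genes with 1 FPKM or more in 3 or more libraries were tested. Stages were compared on log2(FPKM + 1) with limma 3.58.1 (R 4.3.3), a scale that understates changes of low genes, with a variance trend and all 12 libraries in 1 model. In 5 comparisons each later stage was set against Pro, Poly against Baso and Ortho against Poly, with two-sided p-values adjusted by Benjamini-Hochberg over the 12994 genes tested. DESeq2, the authors' tool for counts, does not apply to FPKM. The model was tested on simulated data first. Other pseudocounts, filters, scales and fits, and the omission of each library, were run as alternatives. Positions are from GENCODE M21 and promoters from RefSeq. Tables and figures were made with Python 3.11.15.

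Libraries with the same replicate number deviated together from their stage means in Baso, Poly and Ortho (correlations of 0.156 to 0.319), not between these and Pro (0.00524 to 0.0968), and were therefore taken to pair those 3 stages, from the values and not from any label. The main fits held stage means only and did not use this pairing. It entered only as a replicate block in alternative fits.

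The members and the lists were chosen with earlier results of these data known. The text names all members, up to 4 genes a list with the largest change in Ortho against Pro, 5 genes most like Gata1, Gata2 and Tal1, and the 3 most abundant markers of each list. Partners, subunits, targets and markers named beside these were chosen after their values were seen. A gene of the erythroid and target lists is not reported here and was left out of their counts.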

Additional observations from a re-analysis of the deposited data

How the results depend on the processing

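Each comparison was repeated with a pseudocount of 0.1 or 5, without the filter, with a mean FPKM of at least 5, on the equal-sum, globin-free and median-centred scales, without the variance trend, with only the compared stages, with the replicate number as a block, and without each library in turn. On the globin-free and the median-centred scale, the members higher in Baso than in Pro were 6 and 6 in place of 3, those lower 1 and 1 in place of 2, those lower in Poly than in Pro 1 and 1 in place of 4, and those higher in Ortho than in Poly 1 and 1 in place of 0. The shares of all genes moved in the same directions, to 27.1% and 30.5% from 14.9%, 24.3% and 23.5% from 42.1%, 27.4% and 30.1% from 42.7%, and 9.57% and 11.1% from 4.43%. The last was also 1 with the replicate block, a fit of Baso, Poly and Ortho. On the equal-sum scale, 1 member was higher in Ortho than in Pro in place of 3 (14.7% of all genes in place of 22.7%).

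Leaving out each library gave 2 to 4 members higher and 2 lower in Baso against Pro, 1 to 3 lower in Poly against Baso (1 without Baso replicate 2, Poly replicate 1 or Poly replicate 3), 0 to 1 higher in Ortho against Poly (1 without Pro replicate 3 or Ortho replicate 1), and 2 to 3 higher in Ortho against Pro.

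Some signs turned, among them those of values past the threshold (Tcf3 in Poly against Pro, and Smarca4 and Lyl1 in Ortho against Pro). On the globin-free and the median-centred scale, in this order, Baso against Pro was 0.29 and 0.27 for Gata1 and 0.032 and 0.039 for Cbfa2t3, Ortho against Poly was 0.095 and 0.10 for Gata2, Poly against Pro was 0.30 and 0.22 for Cbfa2t3, and Ortho against Pro was 0.35 and 0.26 for Lmo2, 0.19 and 0.14 for Runx3, 0.23 and 0.15 for Smarca4 and 0.18 and 0.12 for Kit. On the globin-free scale alone, Poly against Baso was 0.031 for Tal1 and Poly against Pro 0.024 for Tcf3, and on the median-centred scale alone Poly against Baso was -0.036 for Zfpm1. On the equal-sum scale, Baso against Pro was -0.14 for Zfpm1 and -0.038 for Lmo2, Poly against Pro was -0.13 for Zfpm1, and Ortho against Pro was -0.11 for Lyl1 and -0.17 for Cbfa2t3. Without 1 library, the ranges that crossed 0 were -0.072 to 0.039 (Gata1), -0.18 to 0.39 (Zfpm1) and -0.022 to 0.23 (Lmo2) in Baso against Pro, -0.31 to 0.18 (Zfpm1) and -0.084 to 0.070 (Tal1) in Poly against Baso, -0.17 to 0.20 for Gata2 in Ortho against Poly, and -0.27 to 0.40 (Zfpm1) and -0.15 to 0.16 (Cbfa2t3) in Poly against Pro. The cause was not tested.

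Under settings that kept all libraries, 14 single-gene values came past the threshold, 25 no longer passed and 24 turned sign. A further 756 values kept their direction and side of the threshold. That count includes the ratios of factor pairs within a library under the rescalings, which have no threshold and could not change with scaling. With the replicate block over all libraries Kit in Ortho against Pro passed (limma adjusted p = 0.00438), and apart from that and the Lmo2 value given in the report the block changed no call of these genes. The unknown depth and the 3 libraries a stage limit what can be resolved among Cbfa2t3, Gata2 and Runx1, whose levels lie nearest the pseudocount.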
